A study of Mus musculus with 1119 samples.

Results

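The 9 genes described here carry signals between hair follicle cells and the melanocytes that pigment the hair: the ligands Kitl, Edn1 and Edn3, the endothelin receptors Ednra and Ednrb, agouti (gene symbol a), the protease Corin, the hormone precursor Pomc and the melanocortin receptor Mc1r. They were chosen by name with earlier results of these data known, and are 9 of the 46517 genes measured in 1119 single cells of mouse back skin. Each cell was sorted into a well of a plate, amplified by Smart-seq2 and given TPM values (a share of all transcripts in the cell, corrected for transcript length). The authors' cell type table puts every cell in 1 of 6 types.

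The dermal papilla, a cluster of specialised fibroblasts at the base of the follicle, was represented by 4 plates of 87, 87, 86 and 77 cells from male K14-H2BGFP;LEF1-RFP mice at postnatal day 30 (P30). They were sorted with GFP, RFP, integrin α9 and CD117, which is the Kit protein. The P30 matrix, the dividing keratinocytes around the papilla that build the hair, was represented by 5 plates of 76, 78, 75, 74 and 81 cells from Lhx2-GFP (CD1) mice of mixed sex. Their sort used GFP, CD34, Sca-1, Pcadherin and the integrins α6 and b1, and CD1 is an albino stock. Earlier epithelium came from Lgr5-eGFPiresCreER;R26-tdTomato mice of mixed sex, sorted by tdTomato in addition and without Sca-1. It comprised anagen II matrix cells (3 plates of 55, 76 and 68 cells, P25-P27), 89 anagen I hair germ cells (3 plates, P23-P24 and P25-P27), 39 telogen bulge cells (1 plate, P21) and 71 telogen hair germ cells (1 plate, P21). Telogen is the resting phase and anagen the growth phase of the hair cycle. The bulge holds hair follicle stem cells, and the hair germ lies between bulge and papilla.

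The labels give neither a coat colour nor an agouti allele, and they tie no cell to an animal. Each type is therefore 1 sample, differences between types have no replicate check and no p-value is given. The spread between plates may hold animals and days as well as technical differences, and intervals cover the counting of cells only. Papilla and P30 matrix also differ in strain, sort, plates and deposited table, which cannot be told apart from cell type.

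Pigment cells of the hair bulb depend on their neighbours. Kit ligand, made by follicle keratinocytes, binds the receptor Kit on melanocytes and supports their migration and survival. Endothelin 3 acts on melanocyte precursors through Ednrb. In mice the agouti protein is secreted by the dermal papilla and blocks Mc1r, which otherwise responds to α-MSH, a peptide cut from Pomc, so that yellow rather than black pigment is made. Corin is a membrane protease of the papilla that limits the action of agouti in mice.

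A gene was called detected in a cell at 1 TPM or more. The median number of genes detected per cell lay between 5516 in anagen II matrix cells and 7392.5 in P30 matrix cells. Of the papilla cells, 90.2% carried at least 3 of 13 papilla markers, and of the P30 matrix cells, 93.5% carried at least 3 of 10 keratinocyte markers. The other 33 papilla wells held 2 to 24 genes each, were spread over all 4 plates and had none of the 9 genes. Without them the papilla shares given below would be 6.25% for Kitl, 1.32% for Edn1, 53.3% for Edn3, 80.3% for Ednra, 76.97% for Ednrb, 41.4% for agouti, 91.8% for Corin and 2.96% for Pomc. Melanocyte markers were frequent in the P30 matrix: 57.3% of cells carried at least 3 of 12, with 60 cells at exactly 2 and 29 at exactly 3. In the papilla 39 cells did (11.6%), 36 of them with exactly 3. The summed level of the 12 markers had a median of 4.65 TPM in papilla cells (highest 171.6 TPM) and 35.6 TPM in P30 matrix cells (highest 20547 TPM). Tyr and Mitf, 2 of the 12, were detected in 36.2% and 51.3% of papilla cells.

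**Figure D1:**
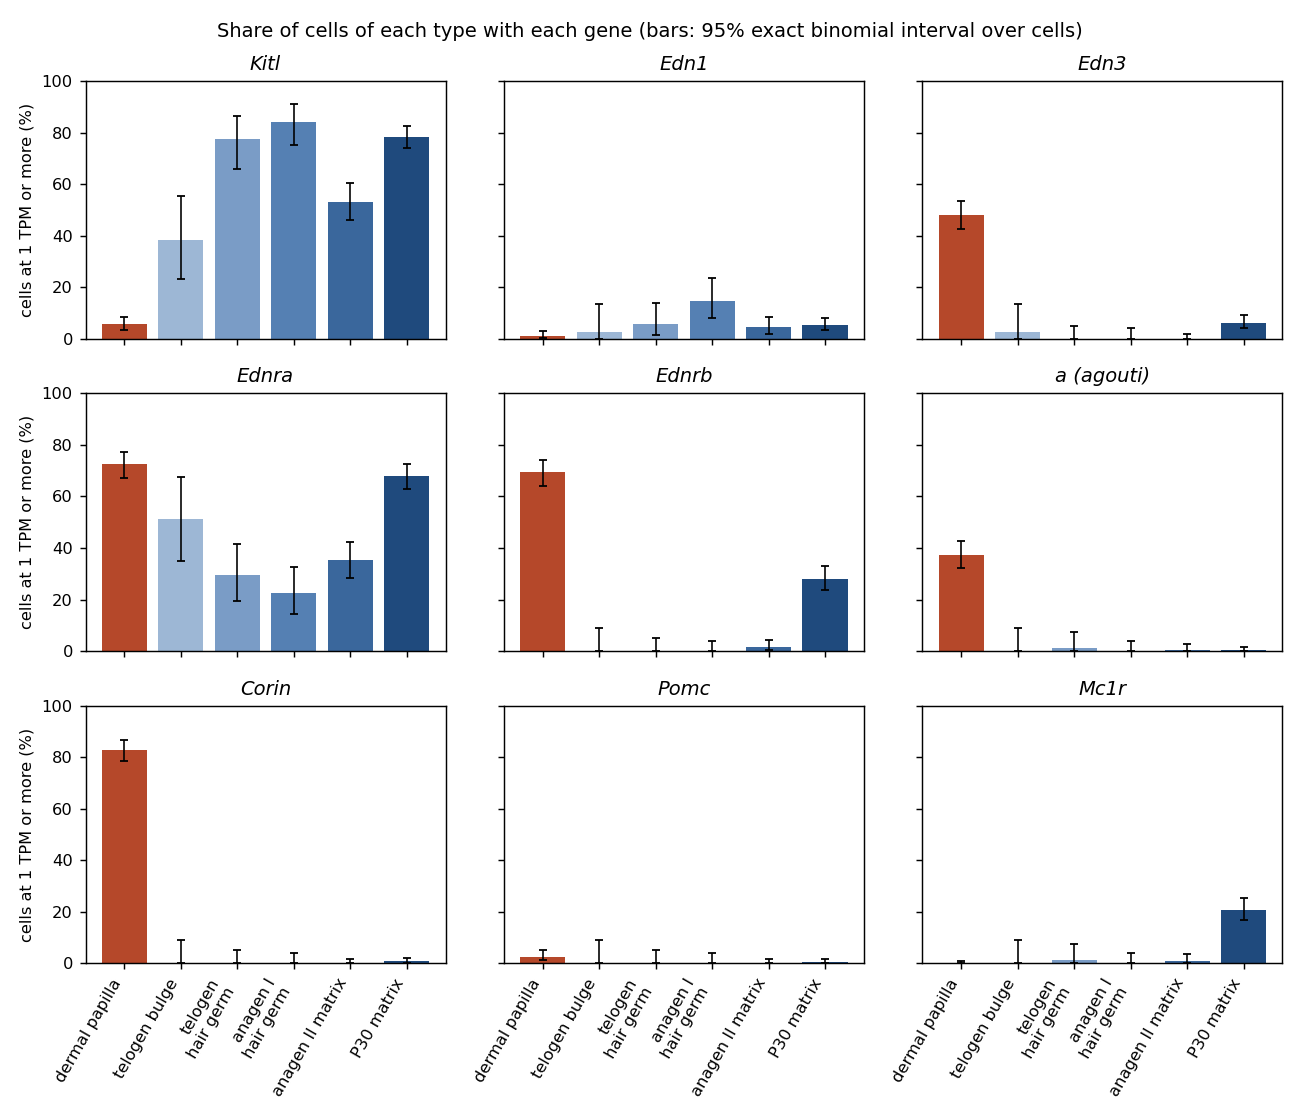
Share of cells with each of the 9 genes at 1 TPM or more (y axis, percent) in each annotated type (x axis); error bars are 95% exact binomial intervals over cells. Corin (82.8%), Edn3 (48.1%) and agouti (37.4%) were frequent in dermal papilla cells only, Kitl in the epithelial types, and Ednra in every type.

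Kit ligand was mainly an epithelial transcript (Kitl; GRCm38 chr10:100015630-100100416, plus strand). Of papilla cells 19 had it (5.64%, 95% interval 3.43 to 8.66; highest 50.4 TPM). It was detected in 15 of 39 telogen bulge cells (38.5%, 23.4 to 55.4), 55 of 71 telogen hair germ cells (77.5%, 66 to 86.5) and 75 of 89 anagen I hair germ cells (84.3%, 75.02 to 91.1). Later stages had it in 53.3% of anagen II matrix cells (46.1 to 60.4) and 78.4% of P30 matrix cells (73.9 to 82.4). By mean log2(TPM + 1) the order was P30 matrix, anagen I germ, telogen germ, anagen II matrix, bulge and papilla. Within that order the intervals of the share met between P30 matrix and anagen I germ, between the germ types, and between anagen II matrix and bulge, and did not meet at the other steps.

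The level per cell was highest in the P30 matrix. Kitl averaged 203.6 TPM there, with a median of 80.2 TPM over all cells, a highest value of 1161 TPM and 47.4% of cells at 100 TPM or more. In anagen II matrix cells the mean was 20.5 TPM, and 9 cells (4.52%) reached 100 TPM. The 5 plates of P30 matrix cells had Kitl in 68.4%, 75.6%, 74.7%, 79.7% and 92.6% of cells. The last is plate P2-1, where the mean was 333.9 TPM, against 146.02 to 199.25 TPM on the other 4. All 5 plate means lay above the highest plate mean of anagen II matrix cells, 27.7 TPM.

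Edn1, which encodes endothelin 1, was sparse in every type (chr13:42301476-42307990, plus strand). It was detected in 4 papilla cells (1.19%), 1 of 39 bulge cells, 4 of 71 telogen germ cells, 13 of 89 anagen I germ cells (14.6%, 8.01 to 23.7), 9 anagen II matrix cells (4.52%) and 21 P30 matrix cells (5.47%, 3.42 to 8.24). The intervals of neighbouring types in the order of levels met throughout. That of papilla (0.324 to 3.01) met neither that of anagen I germ nor that of the P30 matrix. Of the P30 matrix cells with at least 3 of 6 smooth muscle or dermal sheath markers, 16 of 63 had Edn1 (25.4%, 15.3 to 37.9), against 5 of the others (1.56%). The part of those cells in the Edn1 share was not tested.

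Edn3, which encodes endothelin 3, was a papilla transcript (chr2:174760619-174784042, plus strand). It was detected in 48.1% of papilla cells (42.6 to 53.6), with a mean of 62.7 TPM, a median of 66.1 TPM where detected and a highest value of 1901 TPM. The papilla plates had 37.9%, 50.6%, 50% and 54.5% of cells with it. In P30 matrix cells it was found in 24 (6.25%, 4.05 to 9.16; mean 6.12 TPM), on plates at 1.23% to 9.33%, so papilla and matrix plates did not overlap. Of those 24 cells, 7 were among the 25 wells without 3 keratinocyte markers (28%) and 17 among the others (4.74%). Among 398 earlier epithelial cells, 1 bulge cell had it. For the types with a count of 0, the exact interval reaches up to 5.06% of telogen germ, 4.06% of anagen I germ and 1.84% of anagen II matrix cells.

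Of the receptors, Ednra had the widest reach (chr8:77663031-77724464, minus strand). This endothelin receptor was detected in 72.4% of papilla cells (67.3 to 77.1), 51.3% of bulge cells, 29.6% of telogen germ cells, 22.5% of anagen I germ cells, 35.2% of anagen II matrix cells and 67.97% of P30 matrix cells (63.05 to 72.6). Its mean was 27.9 TPM in papilla cells and 25.2 TPM in P30 matrix cells, and 4.34 to 15.7 TPM in the earlier types. Plates ranged from 63.2% to 80.5% in papilla and from 58.97% to 86.4% in P30 matrix and so overlapped. Neighbours in the order of levels had intervals that met at every step, but types further apart did not all meet. Those of papilla and P30 matrix lay above anagen II matrix (28.6 to 42.2), telogen germ (19.3 to 41.6) and anagen I germ (14.3 to 32.6).

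Ednrb, the endothelin receptor of melanocyte precursors, was found in papilla and P30 matrix (chr14:103814625-103844402, minus strand). It was detected in 69.4% of papilla cells (64.2 to 74.3; mean 29.2 TPM) and in 28.1% of P30 matrix cells (23.7 to 32.9; mean 9.67 TPM). Papilla plates ranged from 66.2% to 74.7% and matrix plates from 25% to 30.9%, without overlap. No bulge or hair germ cell reached 1 TPM, and 3 anagen II matrix cells did (1.51%). Of the 12 melanocyte markers, 3 were frequent in papilla cells: Mitf (51.3%), Tyr (36.2%; highest 7.57 TPM) and Slc24a5 (20.2%). The other 9 were in 0% (Oca2) to 4.15% (Pmel) of papilla cells, with Sox10 in 1 cell and Mlana in 3. The part of cells with such markers in the papilla Ednrb share was not tested. The P30 matrix cells with Ednrb are described below beside their melanocyte markers.

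Agouti was detected almost solely in papilla cells (chr2:154791402-155051012, plus strand). It was found in 37.4% of them (32.2 to 42.8; mean 44.3 TPM), and in 41.4%, 39.1%, 36.05% and 32.5% of the cells on the 4 plates. Where detected, its median was 87.7 TPM, with quartiles of 28.7 and 171.2 TPM and a highest value of 634 TPM. Of the 782 epithelial cells 3 had it, 1 each in telogen germ, anagen II matrix and P30 matrix. The annotated span of agouti also covers Raly, which was detected in 83.7% of papilla cells and 92.97% of P30 matrix cells. The strand setting of the authors' counting is not given in the sources used here, so reads of overlapping genes may be shared.

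Corin had the highest mean level of the 9 genes in any type (chr5:72300025-72504473, minus strand). It was detected in 82.8% of papilla cells (78.3 to 86.7), averaged 573 TPM and reached 3394 TPM. Its plates had 77.01%, 87.4%, 81.4% and 85.7%, and among the cells with papilla markers the share was 91.8%. Of the P30 matrix cells 3 had it (0.781%), and of the 398 earlier epithelial cells none did. On each papilla plate Corin was in more cells than agouti. An antisense gene, Gm20647, was detected in 11.6% of papilla cells and in no other type.

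The bases just before the RefSeq transcript starts of these 3 papilla genes are shown because Edn3 and Corin varied together from cell to cell and cells with agouti had less Corin, as given below. They are read 5′ to 3′ on the strand of the gene, from RefSeq on GRCm38.p6: Edn3 at chr2:174760369-174760618 (plus strand), Corin at chr5:72504541-72504790 (minus strand) and agouti at chr2:155013320-155013471 (plus strand, stopping before the nearest annotated exon). A pair of short motifs was searched on both strands: CTTTGA, the core of LEF/TCF sites, and CATGTG, a core bound by the melanocyte factor MITF. Capitals mark a match.
Edn3: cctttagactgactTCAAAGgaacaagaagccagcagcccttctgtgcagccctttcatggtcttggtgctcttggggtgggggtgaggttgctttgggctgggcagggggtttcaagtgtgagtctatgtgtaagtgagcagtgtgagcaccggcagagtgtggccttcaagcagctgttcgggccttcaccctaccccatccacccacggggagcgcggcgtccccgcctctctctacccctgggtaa
Corin: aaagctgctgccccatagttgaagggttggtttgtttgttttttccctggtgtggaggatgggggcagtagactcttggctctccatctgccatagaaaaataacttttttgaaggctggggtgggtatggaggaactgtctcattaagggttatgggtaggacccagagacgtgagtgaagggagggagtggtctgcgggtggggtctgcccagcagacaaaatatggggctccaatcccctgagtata
a: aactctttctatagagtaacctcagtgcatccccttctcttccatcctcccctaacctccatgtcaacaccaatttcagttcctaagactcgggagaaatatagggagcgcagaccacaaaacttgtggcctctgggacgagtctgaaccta
The Edn3 window held CTTTGA once, on the other strand, and the Corin and agouti windows held neither motif. Of 32851 promoter windows in the RefSeq table, 13.8% held the LEF/TCF core and 12.3% the MITF core over 250 bases, the length of the Edn3 and Corin windows. Over the length of the agouti window the shares were 9.37% and 8.05%. A match describes the letters and is no evidence of binding.

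Pomc was close to the detection floor (chr12:3954951-3960642, plus strand). It was found in 9 papilla cells (2.67%, 1.23 to 5.01), 2 P30 matrix cells (0.521%) and none of the 398 earlier epithelial cells. Mc1r, the receptor at which agouti and α-MSH compete, was found in the P30 matrix (chr8:123407107-123410744, plus strand). No papilla cell had it, for which the exact interval reaches up to 1.09%. In the P30 matrix 80 cells did (20.8%, 16.9 to 25.2, mean 3.01 TPM, highest 157.7 TPM). The 5 matrix plates had it in 17.1% to 25.9% of cells, and 3 of the 398 earlier epithelial cells had it. Mc1r lies inside the annotated gene Gm20388, which was detected in 26.8% to 37.1% of cells of every type, so some reads may be shared.

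The window before Mc1r (chr8:123406832-123407081, plus strand, RefSeq, GRCm38.p6) is shown because its cells carried melanocyte markers, as given below; capitals mark the same motifs.
Mc1r: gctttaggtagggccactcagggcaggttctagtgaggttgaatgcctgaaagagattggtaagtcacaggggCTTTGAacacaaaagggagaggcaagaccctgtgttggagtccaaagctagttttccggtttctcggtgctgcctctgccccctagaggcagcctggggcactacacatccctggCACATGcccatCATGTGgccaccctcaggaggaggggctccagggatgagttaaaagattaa
It held CTTTGA once, and CACATG and CATGTG once each. The Ednrb window, whose cells also carried melanocyte markers, held neither motif. The windows of Kitl, Edn1, Ednra and Pomc were searched too and held neither. That of Kitl was only 59 bases long. Over this length 3.69% of promoter windows held the LEF/TCF core and 3.17% the MITF core.

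**Figure D2:**
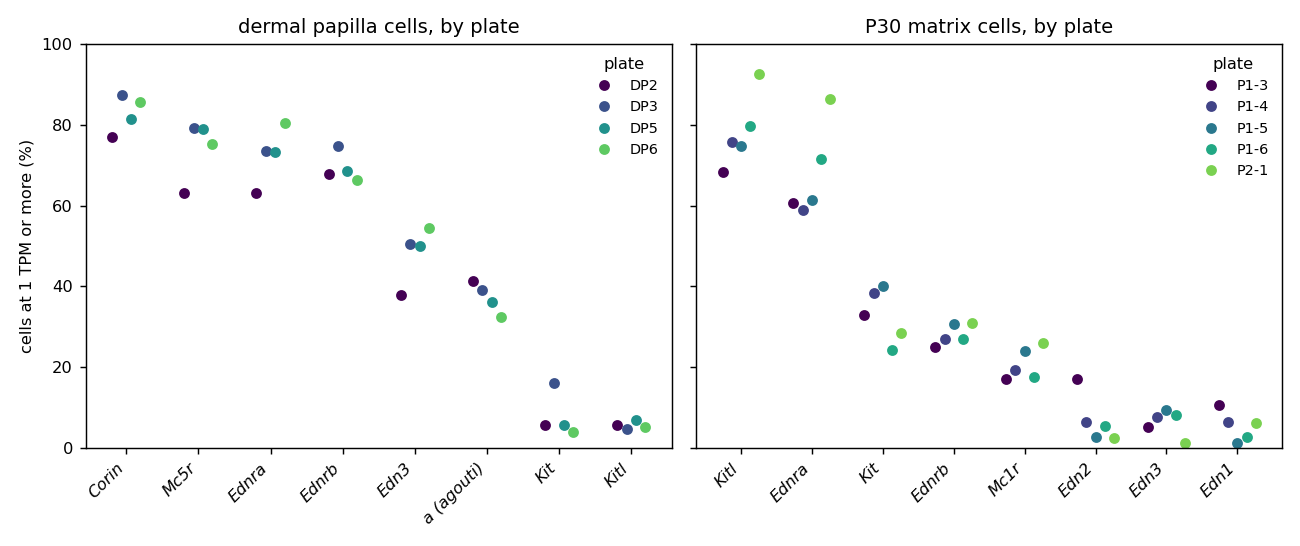
Share of cells at 1 TPM or more (y axis, percent) on each plate, for members and the related genes Kit, Mc5r and Edn2 (x axis), with the 4 dermal papilla plates at the left and the 5 P30 matrix plates at the right. Plate P2-1 had the highest shares of Kitl (92.6%) and Ednra (86.4%) among matrix plates, and plate DP2 the lowest of Edn3 (37.9%) and Ednra (63.2%) among papilla plates.

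For comparisons between types, the mean of log2(TPM + 1) was taken over genes that reached detection in 30% of either type's cells or more. This scale understates the difference of genes at low levels. Between dermal papilla and P30 matrix, 6 of the 9 genes were measurable and 5 differed by 1 log2 unit or more, as did 39.2% of all 10296 genes measured (10.4% higher in papilla and 28.8% lower). Each of the 5 reached 30% of cells only in the type where it was higher, so the count follows in part from this choice of genes. Ednra alone reached 30% in both types. Corin was higher in papilla by 7.36, Edn3 by 2.50, agouti by 2.29 and Ednrb by 2.28, while Kitl was lower, at -5.20. Ednra differed by 0.17. As a log2 ratio of mean TPM + 1, agouti stood at 5.50, Ednrb at 1.5001, Corin at 9.07, Edn3 at 3.16 and Kitl at -6.74, so agouti and Ednrb, close on the first scale, lay far apart on this one. With a pseudocount of 10 the 4 genes higher in papilla lay between 1.02 (Ednrb) and 4.68 (Corin), and Kitl stood at -2.94. The median gene stood at -0.56 in papilla, and rescaling TPM to leave out mitochondrial, spike-in and ribosomal RNA rows put it at -1.09, with 11.96% of genes higher and 53.4% lower by 1 unit or more. Relative to the median gene before rescaling, at -0.56, Ednra stood at 0.73 and Kitl at -4.64. After rescaling, beside the median gene at -1.09, Ednra itself stood at 0.18 and Kitl at -6.85, and no direction turned.

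The P30 matrix against the anagen II matrix, which also sets strains and sorts apart, had 2 measurable members, both higher in the P30 matrix by 1 unit or more, where 16.6% of 9772 genes differed that much (11.1% higher in the P30 matrix and 5.49% lower). After the same rescaling 38.7% were higher and 6.20% lower. Kitl was higher by 3.02 (2.28 to 4.78 over P30 matrix plates) and Ednra by 1.75 (1.25 to 2.58). With a pseudocount of 10 Ednra stood at 0.78 and no longer passed. The median gene stood at 0.34, and at 0.81 after rescaling. Before rescaling, Ednrb (0.92) and Mc1r (0.61) were below 30% of cells in both types. After it, Ednrb was in 34.1% of P30 matrix cells and higher by 1.59, so 3 members passed, where 38.7% of genes were higher.

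The types of the earlier epithelium share strain and sort markers. Each had its own plates, 1 each for bulge and telogen germ, which cannot be told apart from type. The bulge and the hair germ of telogen had 2 measurable members, and both differed by 1 unit or more, with 12.4% of 8847 genes. Kitl was lower in the bulge, at -2.34 (10.8 TPM in bulge cells and 46.01 TPM in germ cells), and Ednra higher by 1.202 (15.7 TPM in bulge cells and 9.47 TPM in germ cells). Ednra reached 30% of cells in the bulge only. It no longer passed with a pseudocount of 10 (0.50) or as a ratio of mean levels (0.67). The anagen I against the telogen hair germ had 1 measurable member, Kitl at 0.28, so 0 passed where 13.5% of 9310 genes did. In anagen I germ cells it was found in 12 of 16 from P25-P27, against 63 of 73 from P23-P24. The anagen II matrix against the anagen I germ had 2 measurable members, Kitl at -1.87 and Ednra at 0.65, so 1 passed where 9.11% of 8954 genes did. Without germ plate 902hg, which holds 73 of the 89 germ cells, the Kitl value was -0.89 and 0 passed, as was so with a pseudocount of 10 (-0.91) or a ratio of mean levels (-0.98).

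The other genes of these pathways set the members among their partners. Kit, the receptor of Kit ligand, was detected in 27 papilla cells (8.01%), 32.8% of P30 matrix cells (mean 11.4 TPM) and 1 of the 398 earlier epithelial cells. The papilla sort used its protein, CD117. Between papilla and P30 matrix both genes of the Kit list were lower in papilla by 1 log2 unit or more, where 28.8% of all genes were. Both reached 30% of cells in the P30 matrix only. Edn2, which encodes endothelin 2, was in 1 papilla cell, 32.4% of telogen germ cells, 26.97% of anagen I germ cells, 18.6% of anagen II matrix cells and 6.77% of P30 matrix cells. Ece1, which activates endothelin precursors, averaged 74.03 TPM in papilla cells and 20.4 TPM in P30 matrix cells. Of the 7 endothelin genes 5 were measurable between papilla and P30 matrix, with Edn3, Ednrb and Ece1 higher in papilla by 1 log2 unit or more and 0 lower, against 10.4% and 28.8% of all genes. Edn3 and Ednrb reached 30% of cells in papilla only. Between P30 and anagen II matrix 3 were measurable, with Ednra higher and Ece1 lower, at -3.15, against 11.1% and 5.49% of all genes.

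Among 16 agouti and melanocortin genes, 6 were measurable between papilla and P30 matrix, with agouti, Corin and Mc5r higher in papilla by 1 log2 unit or more and 0 lower, against the same 10.4% and 28.8%. Agouti, Corin and Mc5r reached 30% of cells in papilla only. Mc5r, a melanocortin receptor known from sebaceous glands, was in 74.2% of papilla cells (mean 96.8 TPM) and in 3 P30 matrix cells (0.781%). Mc2r, the receptor of the stress hormone ACTH, was in 57 papilla cells (16.9%; mean 1.87 TPM) and 1 P30 matrix cell. Papilla cells thus had transcripts of melanocortin receptors other than Mc1r. Atrn, an accessory protein of agouti signalling, was in 66.2% of papilla cells and 80.2% of P30 matrix cells. Pcsk1, a protease that cuts Pomc, reached 1 TPM in none of the 1119 cells.

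Within the papilla, Corin was lower in cells with agouti. Among the cells with papilla markers, 91.3% of those with agouti had Corin (84.9 to 95.6), and 92.1% of those without agouti did (87.2 to 95.6). The median Corin level was 384.9 TPM in cells with agouti and 727 TPM in cells without. Plate medians lay between 299.25 and 457 TPM with agouti and between 629 and 874 TPM without, so that they did not overlap. Both sets of cells had similar numbers of genes, with medians of 5916.5 and 5860. Over all papilla cells the Spearman correlation was -0.211 (plates -0.383 to 0.00467), and over those with papilla markers it was -0.396. Pearson's r of the log2 values over all cells was -0.00653.

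Edn3 varied with Corin and against agouti. The Spearman correlation of Edn3 and Corin was 0.429 over all papilla cells (plates 0.311 to 0.464) and 0.348 over those with papilla markers. Median Corin was 698 TPM in cells with Edn3 and 402 TPM in cells without. Plate medians overlapped, at 599 to 736 TPM with Edn3 and 288.8 to 613 TPM without. Agouti was found in 54 of the cells with Edn3 (33.3%, 26.1 to 41.2) and in 72 of those without (50.7%, 42.2 to 59.2). Counted together over the cells with papilla markers, 33.6% had Corin and Edn3 but no agouti, 63 Corin and agouti but no Edn3 (20.7%), 62 Corin alone (20.4%) and 52 all 3 genes (17.1%). Ednrb was in 82.7% of cells with Edn3 and 70.4% of those without, so ligand and receptor were often detected in the same papilla cell.

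Agouti varied with Mc5r, at a correlation of 0.329 over all papilla cells (plates 0.288 to 0.385) and 0.256 over those with papilla markers. Over all papilla cells Mc5r also correlated with Edn3 at 0.268 and with Corin at 0.260, and over those with papilla markers at 0.161 and 0.0539. Median Mc5r was 94.8 TPM in cells with agouti and 49.2 TPM in cells without, with plate medians of 64.4 to 131.2 TPM with agouti and 26.01 to 60.1 TPM without. Ednrb was in 76.98% of cells with agouti and 76.97% of cells without. These cells share plates and libraries, and the number of genes detected correlated with Corin at 0.398, Mc5r at 0.327, Edn3 at 0.282 and agouti at 0.143 over all papilla cells.

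**Figure D3:**
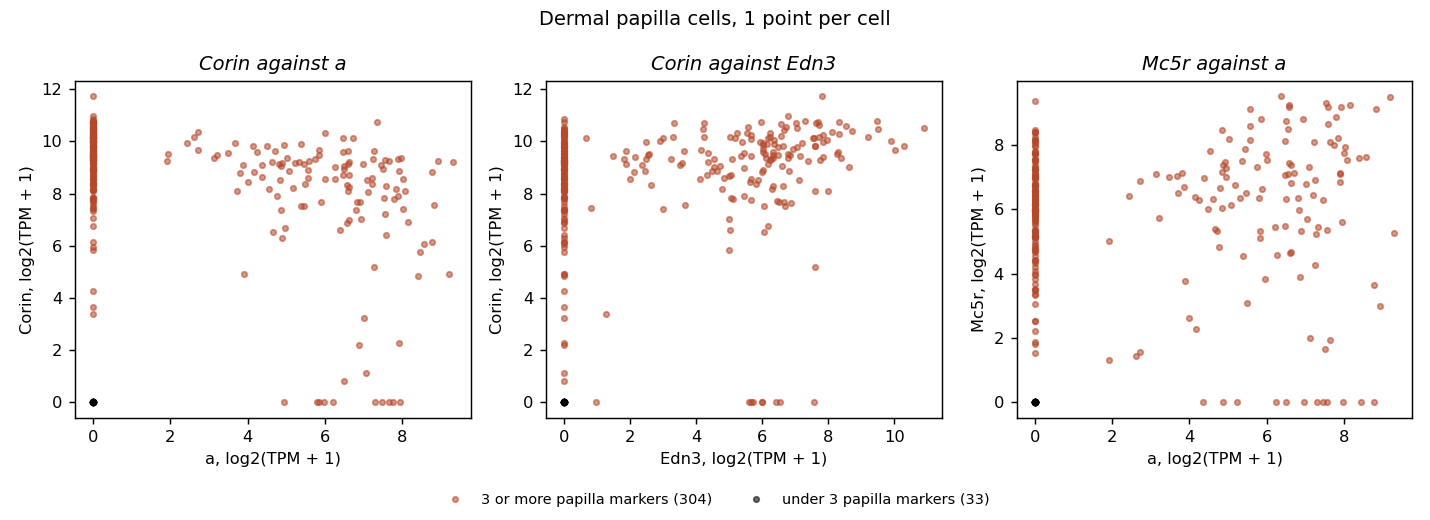
Levels in single dermal papilla cells, log2(TPM + 1) on both axes, for Corin against agouti, Corin against Edn3 and Mc5r against agouti, with 1 point per cell and the 33 wells without 3 papilla markers drawn apart from the others. Median Corin was 384.9 TPM with agouti and 727 TPM without.

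The 5 genes most like each member were taken by Spearman correlation among 8233 genes detected in at least 20% of papilla cells and positive on every plate. For agouti they were Sema5a (0.667), Dkk2 (0.663), Gpx1 (0.644), Olfml2b (0.620) and Emp1 (0.572). For Corin they were Sfrp1 (0.725), Dusp10 (0.669), Rspo4 (0.662), Ltbp1 (0.658) and Laptm4a (0.650). Dkk2 and Sfrp1 encode secreted Wnt antagonists and Rspo4 a secreted enhancer of Wnt signals. Edn3 was closest to Zic1 (0.502), Apod (0.461), Fstl1 (0.440), Corin (0.429) and Islr (0.416). Ednra was closest to Kctd12 (0.575) and Ednrb, more weakly, to Sostdc1 (0.437). These correlations ran over all papilla cells, including the 33 wells without 3 papilla markers. Over papilla cells with at least 4000 genes the value of each first gene was lower. It was 0.651 for Sema5a with agouti, 0.638 for Sfrp1 with Corin and 0.442 for Zic1 with Edn3. Kctd12 stood at 0.467 with Ednra and Sostdc1 at 0.275 with Ednrb.

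In the P30 matrix, Kitl and Ednra varied together, with a correlation of 0.691 over all cells (plates 0.524 to 0.778). Ednra was in 84.1% of cells with Kitl (79.4 to 88.002) and in 8 of 83 without (9.64%, 4.25 to 18.1). The correlation was 0.440 over the cells with at least 3 melanocyte markers and 0.796 over those with fewer. The genes most like Kitl, of 9584 compared, were Foxq1 (0.823), Krt23 (0.785), Gpnmb (0.782), Vat1l (0.781) and Gli3 (0.779). For Ednra, Kitl came first (0.691), before Prdm1 (0.634).

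Ednrb and Mc1r formed another pair, at 0.474 (plates 0.296 to 0.561). Mc1r was in 52 of the cells with Ednrb (48.1%, 38.4 to 57.97) and in 28 of those without (10.1%, 6.85 to 14.3). The correlation was 0.437 in cells with at least 3 melanocyte markers and -0.00107 in the others. The genes most like both were pigment cell genes: Ptgds (0.719), Tyrp1 (0.696), Trpm1 (0.670), Pmel (0.662) and Mlana (0.646) for Ednrb, and Mlana (0.618), Tyrp1 (0.602), Trpm1 (0.590), Pmel (0.586) and Slc45a2 (0.585) for Mc1r. Edn1 lay apart from Kitl, in 3 of the cells with Kitl (0.997%) and 18 of 83 without (21.7%, 13.4 to 32.1).

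**Figure D4:**
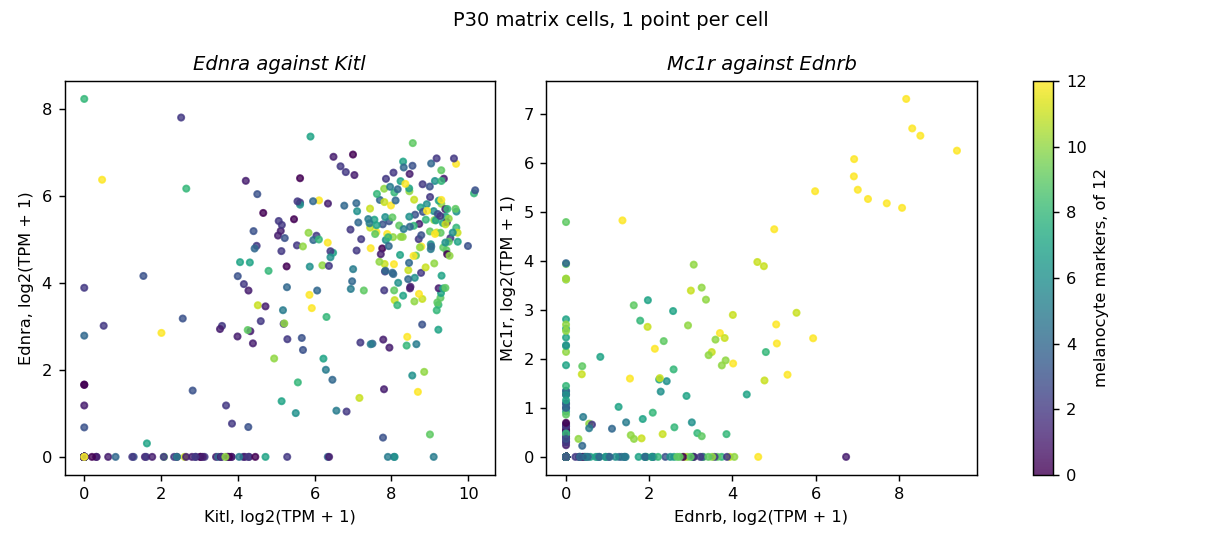
Levels in the P30 matrix cells, log2(TPM + 1) on both axes, 1 point per cell, coloured by the number of 12 melanocyte markers at 1 TPM or more, for Kitl and Ednra (correlation 0.691) and for Ednrb and Mc1r (0.474). Of the 11 cells with Ednrb at 100 TPM or more, 10 carried 7 or more markers.

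Both receptors were most frequent where melanocyte markers were. Ednrb was in 1 of 39 cells with 0 markers (2.56%), 4.80% of those with 1 or 2 (1.78 to 10.2), 15.3% of 59 with 3 or 4, 27.03% of 37 with 5 or 6 and 66.1% of those with 7 to 12 (57.1 to 74.4). Mc1r followed the same order, at 0%, 2.40%, 6.78%, 10.8% and 55.6%. Kitl was in 30.8%, 68.8%, 83.1%, 97.3% and 95.2%, and Ednra in 23.1%, 50.4%, 76.3%, 81.1% and 91.9%. Kit, at 15.4%, 41.6%, 22.03%, 16.2% and 39.5%, kept no such order. The sets differed in other genes too. Acta2, a smooth muscle or dermal sheath marker, was in 66.7% of cells with 0 markers and 15.3% of those with 7 to 12. Foxq1, the gene most like Kitl, was in 15.4% and 90.3%. The part of this difference in the Kitl and Ednra shares was not tested. Over the 5 plates, Mc1r was in 45% to 66.7% of cells with 7 or more markers and in 0% to 5% of cells with 2 or fewer.

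Cells with many melanocyte markers also carried keratinocyte markers. Cells with 7 or more made up 32.3% of the P30 matrix. Of them 96.8% had at least 3 of 10 keratinocyte markers, against 93.5% of all P30 matrix cells. Krt75, a keratin of the companion layer and matrix, was in 93.5% of cells with 7 or more and 7.69% of cells with 0. Median Krt5, 1 of the 10 keratinocyte markers, went the other way, at 29.9 TPM with 7 or more and 78.2 TPM with 0. All 11 cells with Ednrb at 100 TPM or more had at least 3 keratinocyte markers, and their median Mlana was 1339 TPM. Of the cells with Kitl at 100 TPM or more, 97.8% had keratinocyte markers and 90 (49.5%) had 7 or more melanocyte markers. Leaving out cells with at least 3 markers of melanocytes, endothelium, immune cells or fibroblasts, Ednrb was in 1.37% of P30 matrix cells and Kitl in 58.2%. Whether such wells held more than 1 cell was not tested.

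**Figure D5:**
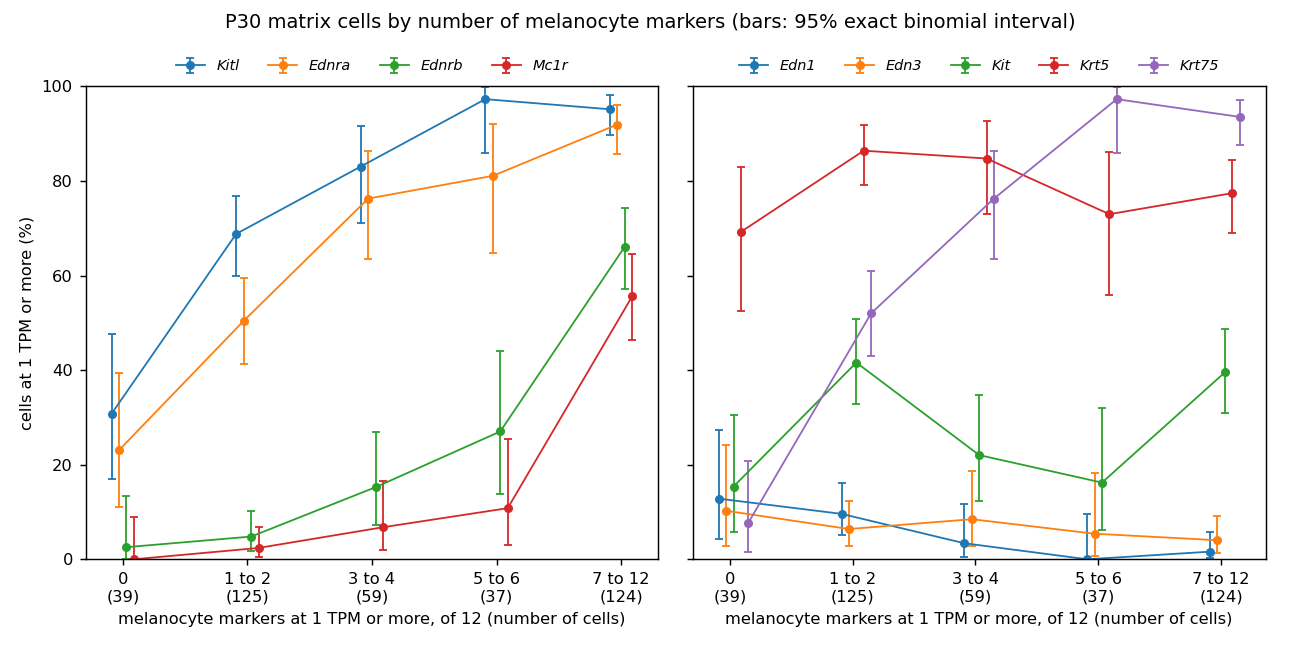
Share of P30 matrix cells at 1 TPM or more (y axis, percent, with 95% exact binomial intervals) in 5 sets of cells by number of melanocyte markers detected (x axis), for Kitl, Ednra, Ednrb and Mc1r and for Edn1, Edn3, Kit, Krt5 and Krt75. Ednrb and Mc1r were highest at 7 to 12 markers, at 66.1% and 55.6%.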

How the data were processed

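Cells were sorted into plates and sequenced as Smart-seq2 libraries, per the labels' protocols. The submitters' processing notes name Bowtie2 2.2.9, RSEM 1.2.30 and mm10, without further settings. The authors deposited TPM values for 46609 rows, 92 of them spike-ins, in 3 tables, and a table of cell types. The papilla table parts its fields with the characters /t and was read as TPM like the others. Columns sum to about 1000000, so read depth is unknown.

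Shares at 1 TPM or more with exact (Clopper-Pearson) intervals, means of log2(TPM + 1) and Spearman correlations across cells were computed from the deposited TPM with Python 3.11.15, numpy 2.4.6, pandas 2.3.3 and scipy 1.17.1. Mitochondrial, ribosomal RNA and spike-in rows were left out of comparisons. Named genes were the 9 members, the 5 genes most like each, without predicted genes, and pathway genes that 20% of the cells of some type had. Mc2r and Pcsk1 were named outside this rule, as both lay below 20% in every type. Cells are not replicates and no test was run. The code was tested on simulated data. No doublet caller was run. The members, marker lists and pathway lists were chosen with earlier results of these data known. Gene positions come from GENCODE M21. Alternatives covered thresholds, pseudocounts, rescaling, cell filters and leaving out plates.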

Additional observations from a re-analysis of the deposited data

How the results depend on the processing

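Over 13 main results, 20 alternative values left the interval of the share, the spread between plates or 1.5 times the count. A turn of direction could be recorded only for the correlation of agouti and Corin, which did not turn. Shares and counts have no direction. For single genes' differences, 46 values counted as moved beyond the spread between plates, 80 stayed and 0 turned direction. The telogen bulge had 1 plate and thus no such spread, so every changed value of its comparison counted as moved. Corin's papilla share was 92% in cells with at least 4000 genes and 91.8% in cells with papilla markers, the second chosen after seeing the data. At 10 TPM or more, the papilla shares were 2.37% for Kitl and 41.8% for Edn3, and the P30 matrix shares 71.4% for Kitl, 1.82% for Edn1 and 10.4% for Ednrb. Ednrb was in 34.9% of P30 matrix cells above 0 TPM and 34.1% after rescaling. Without cells carrying markers of another class, P30 matrix shares were 58.2% for Kitl, 11.6% for Edn1 and 1.37% for Ednrb. Pearson's r of agouti and Corin was -0.00653. Members past 1 log2 unit numbered 1 for bulge against hair germ with a pseudocount of 10 or a ratio of mean levels. For P30 against anagen II matrix they numbered 1 with a pseudocount of 10. After rescaling they numbered 3 there, with Ednrb added, which stayed within 1.5 times the count. For anagen II matrix against anagen I germ they numbered 2 with a pseudocount of 0.1 and 0 with a pseudocount of 10 or a ratio of mean levels. The causes were not tested. Leaving out 1 plate at a time gave papilla shares of 36% to 38.8% for agouti, 81.2% to 84.8% for Corin, 5.18% to 6% for Kitl and 46.2% to 51.6% for Edn3, and a papilla correlation of agouti and Corin of -0.282 to -0.152. In the P30 matrix it gave 74.6% to 80.8% for Kitl, 4.22% to 6.47% for Edn1 and 27.4% to 28.9% for Ednrb. Counts were 0 to 0 for anagen I against telogen germ, 0 to 1 for anagen II matrix against anagen I germ, 2 to 2 for P30 against anagen II matrix and 5 to 5 for papilla against P30 matrix. No paired analysis was possible because the plate names of any 2 types compared share at most 1 number. Unknown depth limits statements on genes near 1 TPM, such as Mc1r.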

Other observations

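Of 17 other secreted factors known to act on melanocytes, 9 were measurable between papilla and P30 matrix: Fgf7, Igf1, Bmp4 and Tgfb2 were higher in papilla by 1 log2 unit or more, and Jag1 and Jag2 lower, where 10.4% of all 10296 genes were higher and 28.8% lower. Among the genes named here, only Jag1 reached 30% of cells in both types. Fgf7, a growth factor for keratinocytes, was in 86.9% of papilla cells (mean 150.07 TPM) and 1.30% of P30 matrix cells. Bmp4, also one of the papilla markers, averaged 57.6 TPM in papilla cells and 4.09 TPM in P30 matrix cells. Jag2, a Notch ligand, was in 1.78% of papilla cells and 89.3% of P30 matrix cells.

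Cxcl12, a chemokine, was in 46.2% of telogen bulge cells, 87.3% of telogen germ cells, 70.8% of anagen I germ cells, 26.6% of anagen II matrix cells and 23.4% of P30 matrix cells. Wnt5a, a Wnt ligand, was in 71.6% of P30 matrix cells, 69.4% of papilla cells and 12.6% of anagen II matrix cells. It was higher in P30 than in anagen II matrix by 2.60 on the log2 scale, where 11.1% of all genes were higher by 1 unit or more.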
